A study of Mus musculus with 14 samples.

Results

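Mitochondrial ribosomal protein genes were taken as all symbols that begin with Mrpl or Mrps followed by a number, with pseudogenes (-ps) left out. This gave 78 of the 55433 gene symbols in the RNA table, 49 named for the large subunit and 29 for the small, and 76 of 22470 gene bodies in the chromatin table. The cells came from a mouse tumor on the C57BL/6 background and were used between passages 6 and 8. They carried a guide RNA against Nsd3 (sgNSD3), which encodes a histone H3 lysine 36 methyltransferase, or a control guide (sgControl). RNA was sequenced in 3 sgNSD3 and 3 sgControl libraries. The labels also list 4 H3K36me2 and 2 H3K27me3 chromatin samples, and 2 titled IgG. Both IgG samples carry an H3K36me2 antibody label. The IgG sample titled as sgNSD3 has an sgControl source label, so its condition was left unassigned. The labels give neither the tumor type nor whether a condition is 1 clone, and do not describe the RNA replicates as separate cultures. The p-values below therefore measure the spread between these libraries, which may be technical.

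The mitochondrial ribosome translates the few mRNAs that the mitochondrial genome encodes, all of them for subunits of oxidative phosphorylation. Its ribosomal RNAs come from mitochondrial DNA, whereas its proteins are encoded in the nucleus, made in the cytosol and imported. Some of these proteins have bacterial counterparts, and others were added to the particle in the evolution of mitochondria.

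Nsd3 RNA, the check of the labels, was higher and not lower in the libraries labelled sgNSD3. It had 21989, 22012 and 21837 normalized counts in the libraries labelled sgNSD3 replicates 1, 2 and 3, against 14568, 14402 and 14675 in sgControl replicates 1, 2 and 3. Normalized counts are the reads counted for a gene divided by the size factor of the library. A guide need not lower the RNA of its target, so this does not settle the labels, and every direction below rests on them.

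The libraries held 20294828 to 21863833 counts each. Chi-square per degree of freedom of the gene counts was 1.33 to 1.45 between libraries labelled sgNSD3 and 2.90 to 9.95 between sgControl libraries. It was 7.39 to 8.32 between libraries of different conditions. The sgControl replicates 1 and 3, at 9.95, thus differed more than any pair of libraries across conditions. With these values no libraries were merged. All 9 mesenchymal markers had a mean of at least 8 normalized counts, against 5 of 9 epithelial markers, with Epcam at 0 in every library. Summed epithelial markers were 3352 to 3366 normalized counts in the libraries labelled sgNSD3 and 4471 to 5061 in sgControl libraries. Summed mesenchymal markers were 1221833 to 1230536 normalized counts in the libraries labelled sgNSD3 and 1078611 to 1164269 in sgControl libraries. Single markers did not all follow these sums. By the test described below, 3 of 5 tested epithelial markers were lower and 1 was higher. Of 9 mesenchymal markers, 4 were higher and 1 was lower. The part of these markers in the results below was not tested. In bulk RNA, fewer cells of a type and less RNA per cell cannot be told apart.

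Of the 77 mitochondrial ribosomal protein genes tested, 5 were lower in the libraries labelled sgNSD3 and 0 were higher (limma, Benjamini-Hochberg adjusted p threshold 0.05 over all 18263 genes with a mean of at least 8 normalized counts). That is 6.49% of the tested members, close to the 6.44% of all tested genes that were lower, while 5.44% of all tested genes were higher. At an unadjusted p under 0.05, 16 members were lower and 1 was higher. Over all 18263 tested genes, 2381 were lower and 2135 higher at that threshold. Among the 8385 genes with a mean level within the range of the members, 1132 were lower and 948 higher. The one member without a test, Mrpl53, had 0 counts in every library, which allows up to 3 counts per library. Its RefSeq span overlaps Ccdc142, so reads there may not have been assigned.

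Most fitted changes were small and lay below 0. The fitted log2 fold was below 0 for 60 of 77 members, against 49.8% of all tested genes, and its median was -0.07 over the members and 0.00 over all tested genes. Over the 8385 genes with a mean level within the range of the members, 52.5% lay below 0, with a median log2 fold of -0.01 and 6.06% called lower. All 3 libraries labelled sgNSD3 were below all 3 sgControl libraries for 20 members, against a background of 14.4% of genes, and above them for 2 members, against 14.0%. Members are not independent of each other, so these shares describe the list and were not tested. Fitted log2 folds of members ran from -0.48 for Mrps33 to 0.21 for Mrps18c, with a median SE of 0.08.

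Summed over the 78 members, RNA was lower in each of the libraries labelled sgNSD3 than in each sgControl library, by a small margin. The sums were 25971, 26204 and 26210 normalized counts in the libraries labelled sgNSD3, against 27666, 27422 and 27181 in sgControl libraries. As a share of all counts, the members took 0.124%, 0.125% and 0.125% in the libraries labelled sgNSD3, against 0.129%, 0.132% and 0.132% in sgControl libraries. Relative to the sgControl mean, the median member stood at log2 values of -0.10, -0.07 and -0.07 in the libraries labelled sgNSD3, so no single library carried the shift.

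**Figure D1:**
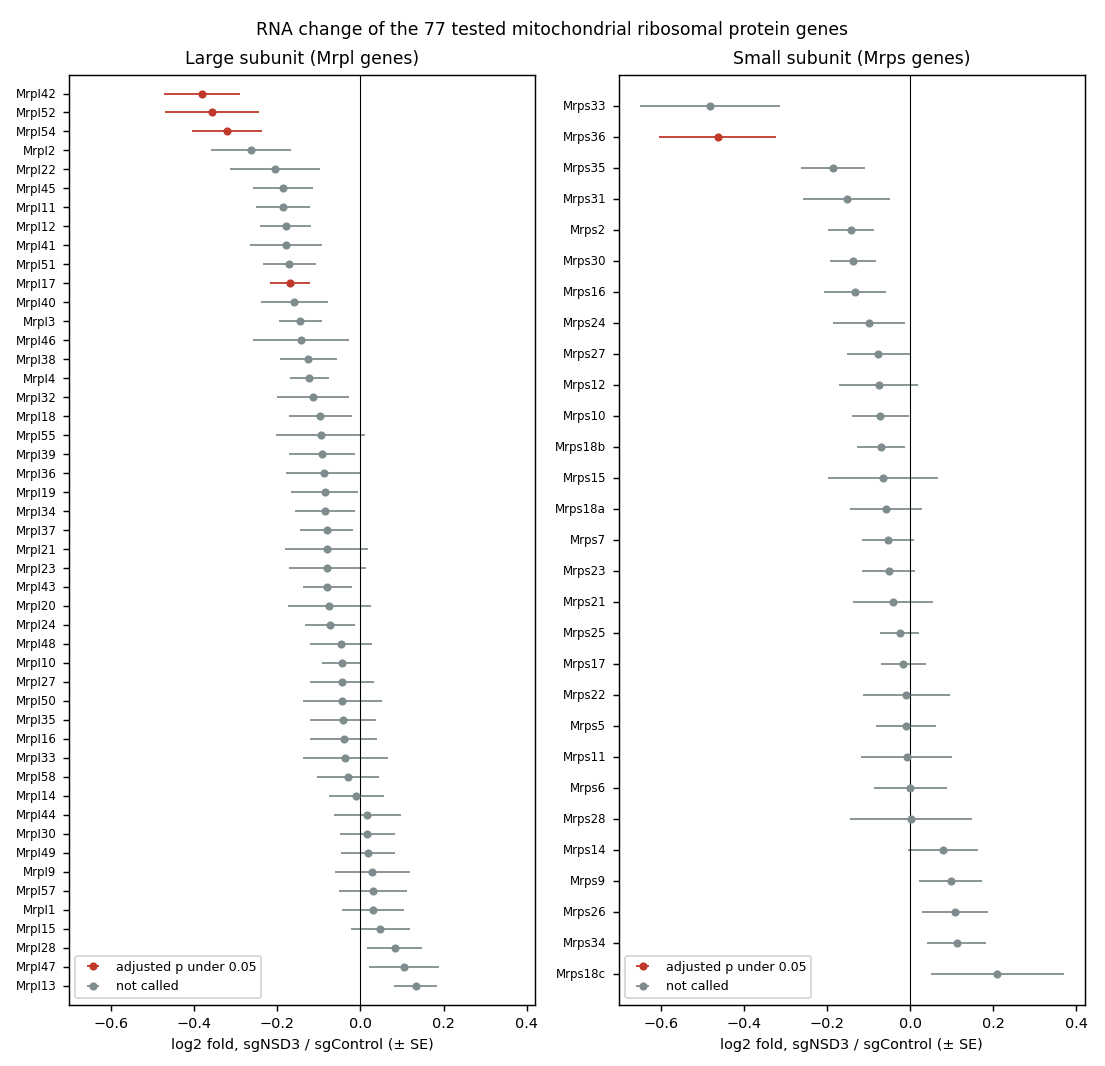
Log2 fold (libraries labelled sgNSD3 over sgControl libraries, x axis) of the 77 tested members with its standard error, large subunit on the left and small subunit on the right, ordered by size. The 5 called genes are red, and 60 of the 77 points lie left of 0.

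The genes that fell were Mrpl42, Mrpl54, Mrpl52, Mrpl17 and Mrps36. Mrpl42, Mrpl52 and Mrpl54 encode large-subunit proteins without a bacterial counterpart. Mrpl17 encodes the counterpart of bacterial ribosomal protein L17. Mrps36 was named as a small-subunit protein, but it has been described as a component of the 2-oxoglutarate dehydrogenase complex of the citric acid cycle.

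Mrpl42 (chromosome 10, 95480805 to 95501949, GRCm38) had 166.4, 166.8 and 164.2 normalized counts in the libraries labelled sgNSD3, against 208.9, 234.4 and 206.0 in sgControl libraries. The libraries labelled sgNSD3 lay together, below every sgControl library. The means were 165.8 ± 1.39 in the libraries labelled sgNSD3 and 216.5 ± 15.6 in sgControl libraries (SD, n = 3 each; limma adjusted p = 0.00726), 1.31-fold lower. Leaving out sgControl replicate 2 ended the call (limma adjusted p = 0.0526).

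Mrpl54 (chromosome 10, 81264722 to 81266926) had 315.2, 376.8 and 315.8 normalized counts in the libraries labelled sgNSD3, against 482.6, 384.7 and 394.8 in sgControl libraries. The groups did not overlap, but sgNSD3 replicate 2 and sgControl replicate 2 were close. The means were 335.9 ± 35.4 in the libraries labelled sgNSD3 and 420.7 ± 53.8 in sgControl libraries (SD, n = 3 each; limma adjusted p = 0.0125), 1.252-fold lower. The call was lost without sgControl replicate 1 (limma adjusted p = 0.084) and without sgNSD3 replicate 1 or 3 (0.0867 and 0.082).

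Mrpl52 (chromosome 14, 54426909 to 54429750) had 137.4, 113.1 and 110.5 normalized counts in the libraries labelled sgNSD3, against 164.0, 151.2 and 146.1 in sgControl libraries. It was 1.28-fold lower, with means of 120.4 ± 14.9 in the libraries labelled sgNSD3 and 153.8 ± 9.2 in sgControl libraries (SD, n = 3 each; limma adjusted p = 0.0419). This was the called member nearest the threshold. The call was lost without sgControl replicate 1 or 2 (limma adjusted p = 0.121 and 0.0816), without sgNSD3 replicate 2 or 3 (0.168 and 0.18), and with no filter on low values (0.0578). It was also lost with the replicate numbers of the sample descriptions as a block in the model (limma adjusted p = 0.054).

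Mrpl17 (chromosome 7, 105803782 to 105811087) had 718.3, 712.4 and 712.6 normalized counts in the libraries labelled sgNSD3, against 789.7, 819.1 and 802.8 in sgControl libraries. Both groups were tight, and the difference was the smallest in fold among the 5, at 1.13-fold lower. The means were 714.4 ± 3.3 in the libraries labelled sgNSD3 and 803.9 ± 14.8 in sgControl libraries (SD, n = 3 each; limma adjusted p = 0.0217). The call was lost without sgControl replicate 2 (limma adjusted p = 0.0759) and without any one of sgNSD3 replicates 1, 2 and 3 (0.068, 0.0823 and 0.08).

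Mrps36 (chromosome 13, 100735940 to 100744659) had 69.24, 79.59 and 62.56 normalized counts in the libraries labelled sgNSD3, against 99.23, 104.3 and 88.3 in sgControl libraries. The means were 70.46 ± 8.58 in the libraries labelled sgNSD3 and 97.28 ± 8.18 in sgControl libraries (SD, n = 3 each; limma adjusted p = 0.0303), 1.38-fold lower. Its pseudogenes Mrps36-ps1, Mrps36-ps2 and Mrps36-ps3 held at most 3.04 normalized counts in any library. Reads shared with them could have been lost from the count of Mrps36, so its level is uncertain. The call was lost without sgControl replicate 1 or 2 (limma adjusted p = 0.0639 and 0.116) and without sgNSD3 replicate 1 or 3 (0.0947 and 0.151).

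Leaving out 1 library at a time thus changed the count of lower members by more than 1.5-fold, except in the fit without sgControl replicate 3. It was 3 without sgControl replicate 1, 3 without sgControl replicate 2 and 6 without sgControl replicate 3. It was 2, 3 and 1 without sgNSD3 replicate 1, 2 and 3. On the deposited scale, 57 to 62 of the 77 fitted changes lay below 0 in each of these fits.

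**Figure D2:**
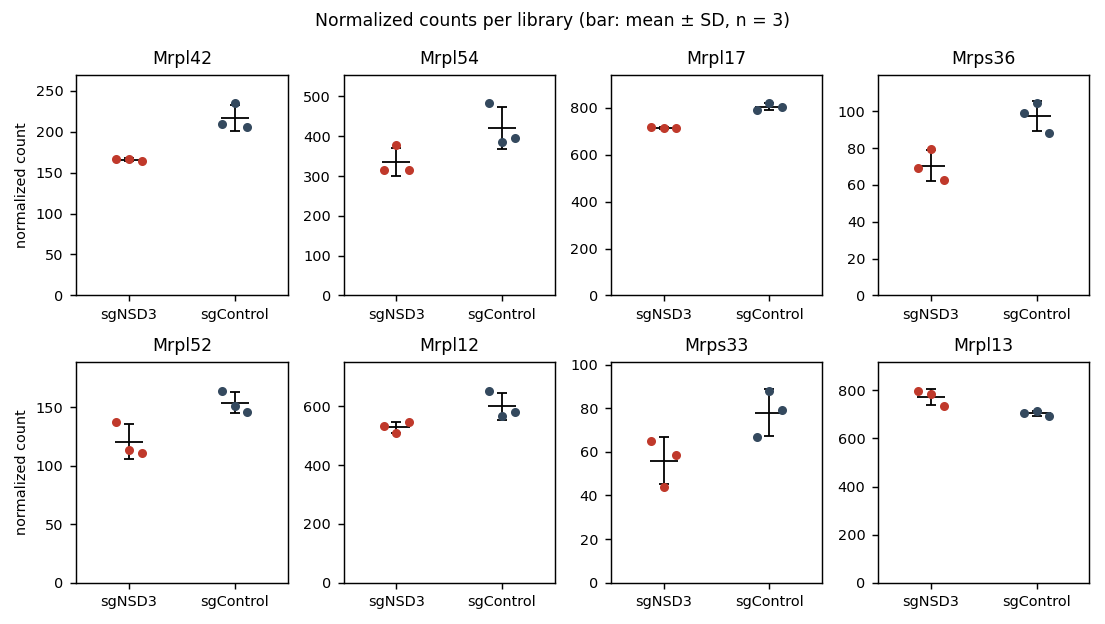
Normalized counts (y axis, from 0) in each library for the 5 called members (Mrpl42, Mrpl54, Mrpl17, Mrps36, Mrpl52) and for Mrpl12, Mrps33 and Mrpl13, which were not called. Points are libraries, libraries labelled sgNSD3 on the left and sgControl libraries on the right; bars are the mean ± SD (n = 3 each), and Mrpl13 has its higher values on the left.

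The promoters of the called members are printed here to show what lies at the starts of the genes that fell; no RefSeq promoter was matched for Mrpl54. Each runs from 250 bases before the transcription start to 50 bases after it, 5′ to 3′ along the gene (RefSeq, GRCm38.p6). The positions are chr10:95501900-95502199, minus strand, for Mrpl42, chr14:54426659-54426958, plus strand, for Mrpl52, chr7:105811038-105811337, minus strand, for Mrpl17, and chr13:100744610-100744909, minus strand, for Mrps36. Capitals mark matches, on either strand, to 3 letter patterns known from promoters of nuclear genes for mitochondrial proteins. They are CCGGAAG, the core bound by ETS factors such as GABPA, the NRF1-type pattern, bound by NRF1, and AAGATGGC, bound by YY1.
Mrpl42: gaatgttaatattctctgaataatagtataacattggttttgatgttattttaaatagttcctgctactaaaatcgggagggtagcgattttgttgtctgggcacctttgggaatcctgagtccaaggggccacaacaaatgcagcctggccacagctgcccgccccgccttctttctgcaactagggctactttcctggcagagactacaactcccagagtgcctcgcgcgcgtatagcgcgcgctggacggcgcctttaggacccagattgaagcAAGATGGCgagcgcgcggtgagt
Mrpl52: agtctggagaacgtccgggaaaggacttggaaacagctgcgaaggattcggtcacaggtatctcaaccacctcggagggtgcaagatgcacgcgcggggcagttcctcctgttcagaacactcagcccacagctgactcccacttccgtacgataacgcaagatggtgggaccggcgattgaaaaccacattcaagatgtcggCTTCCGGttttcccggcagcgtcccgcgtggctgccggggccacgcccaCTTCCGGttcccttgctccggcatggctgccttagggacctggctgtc
Mrpl17: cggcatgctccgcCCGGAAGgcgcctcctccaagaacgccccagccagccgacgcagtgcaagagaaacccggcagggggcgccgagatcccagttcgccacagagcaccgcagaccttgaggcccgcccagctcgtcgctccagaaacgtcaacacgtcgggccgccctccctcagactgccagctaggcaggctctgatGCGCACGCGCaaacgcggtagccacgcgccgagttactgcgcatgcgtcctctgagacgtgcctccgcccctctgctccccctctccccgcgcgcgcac
Mrps36: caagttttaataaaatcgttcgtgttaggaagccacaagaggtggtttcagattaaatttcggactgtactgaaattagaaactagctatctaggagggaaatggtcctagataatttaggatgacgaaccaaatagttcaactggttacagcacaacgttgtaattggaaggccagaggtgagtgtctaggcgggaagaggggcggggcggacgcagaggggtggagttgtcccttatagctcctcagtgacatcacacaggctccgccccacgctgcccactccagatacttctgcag
The 4 windows had no pattern in common. Mrpl42 held the YY1-type pattern 27 bases after the start, Mrpl52 held 2 ETS-type matches, Mrpl17 held 1 ETS-type and 1 NRF1-type match, and Mrps36 held none. A match is a run of letters and does not show binding.

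Over the whole family these patterns were frequent, though the ETS-type pattern was not particular to it. Taking 1 promoter per gene, 69 members had one, and 36.2% of them held the ETS-type pattern, against 11.9% of 17492 promoters of protein-coding genes and 9.12% of all 27025. The NRF1-type pattern was in 18.8% of members' promoters, against 6.60% of protein-coding genes, and the YY1-type pattern in 17.4%, against 3.22%. Any of the 3 was present in 60.9% of members and in 19.5% of protein-coding genes, and all 3 together in 0 of 69 members. The 64 promoters of cytosolic ribosomal protein genes held the ETS-type pattern about as often as the members, in 39.1%. They held the NRF1-type and YY1-type patterns in 7.81% each, and any of the 3 in 51.6%. The YY1-type matches of the members were centred at a median of 18.5 bases after the start. Other patterns were nearer the background. GGGCGG, the SP1-type pattern, was in 49.3% of members against 46.3% of protein-coding genes, CCAAT in 39.1% against 39.0%, and CACGTG, the E-box bound by MYC, in 7.25% against 7.90%. TATAAA was in 5.80% of members against 13.3% of protein-coding genes. These shares were not tested, and some patterns overlap where promoters are rich in G and C.

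The RNA change was set beside the patterns without a test. The median log2 fold was -0.08 for the 24 tested members with the ETS-type pattern and -0.07 for the 44 without it. It was -0.01 for the 13 with the NRF1-type pattern and -0.07 for the 55 without it. It was -0.08 for the 12 with the YY1-type pattern and -0.07 for the 56 without it. For CCAAT it was -0.09 for the 26 with it and -0.05 for the 42 without it. Called members were 2, 1 and 1 of those with the ETS-type, NRF1-type and YY1-type patterns.

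By the subunit named in the symbol, 4 of 48 tested Mrpl genes (8.33%) and 1 of 29 Mrps genes (3.45%) were lower. The lower Mrps gene was Mrps36, described above as a component of another complex. The share over all tested genes was 6.44%. The median log2 fold was -0.08 for the large and -0.05 for the small subunit, and 38 of 48 and 22 of 29 fitted changes lay below 0. Mrps30 and Mrps18a, although named for the small subunit, encode proteins of the large subunit. By origin, 1 of 46 genes with a bacterial counterpart (2.17%) and 3 of 30 tested mitochondrion-specific genes (10.0%) were lower. Their medians were -0.06 and -0.08, and Mrps36 was in neither class. These differences between classes rest on few called genes and were not tested.

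Large-subunit members with a role at the factor-binding stalk or the catalytic core follow; none passed the test, and all but Mrpl12 were named after their values were seen. Mrpl12, whose protein is the counterpart of the bacterial L7/L12 stalk and also binds the mitochondrial RNA polymerase, was the uncalled member nearest the threshold. It had 531.2, 509.2 and 545.5 normalized counts in the libraries labelled sgNSD3, against 652.8, 565.5 and 580.5 in sgControl libraries (limma adjusted p = 0.0582). Its groups did not overlap, and its log2 fold was -0.18 ± 0.061 (SE). It was called without sgControl replicate 2 (limma adjusted p = 0.0392) and with a replicate block by title number (0.0372). Mrpl11, a protein of the stalk base, had a log2 fold of -0.19 and a limma adjusted p of 0.0706. Mrpl10, which anchors the stalk, had a log2 fold of -0.05, while Mrpl16 and Mrpl27, 2 further counterparts of bacterial proteins, each had a log2 fold of -0.04.

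Mrpl2 and Mrpl3, counterparts of bacterial proteins next to the peptidyl transferase centre, had log2 folds of -0.26 and -0.14 (limma adjusted p = 0.0773 and 0.0727). For Mrpl2 the groups overlapped, at 235.6, 224.4 and 264.9 normalized counts in the libraries labelled sgNSD3 against 343.7, 272.7 and 258.8 in sgControl libraries. For Mrpl3 they did not, at 709.0, 721.1 and 737.1 in the libraries labelled sgNSD3 against 815.8, 749.3 and 832.2 in sgControl libraries. Mrpl2 was called without sgControl replicate 3 (limma adjusted p = 0.0287) and Mrpl3 without sgControl replicate 2 (0.0288). Mrpl2 was also called with a replicate block by title number. Mrpl4, near the exit tunnel, had a log2 fold of -0.12. Mrpl45, which faces the inner membrane at the tunnel exit, had a log2 fold of -0.19 (limma adjusted p = 0.0981 and 0.102).

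Mrpl13 went against the trend, with the highest log2 fold in the large subunit. It had 798.9, 783.4 and 735.1 normalized counts in the libraries labelled sgNSD3, against 704.0, 713.9 and 694.2 in sgControl libraries, and the groups did not overlap. Its log2 fold was 0.13, with a 95% interval from 0.03 to 0.24, and it did not pass the adjusted test (limma adjusted p = 0.0951). Mrpl58, a peptidyl-tRNA hydrolase built into the large subunit, averaged 326.6 ± 25.8 normalized counts in the libraries labelled sgNSD3 and 333.2 ± 15.2 in sgControl libraries (SD, n = 3 each). The 95% interval of its fold ran from 0.880 to 1.09.

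In the small subunit, Mrps33, a mitochondrion-specific protein, had the lowest log2 fold of all members but was not called. It had 65.11, 44.11 and 58.65 normalized counts in the libraries labelled sgNSD3, against 66.85, 88.04 and 79.16 in sgControl libraries (limma adjusted p = 0.06). The groups did not overlap, but sgNSD3 replicate 1 and sgControl replicate 1 were close. It was called under quantile normalization (limma adjusted p = 0.0452) and without sgControl replicate 1 (0.0271). It was also called with a replicate block by title number (limma adjusted p = 0.0465) or by description number (0.0479). Mrps34, which small-subunit assembly needs, was above sgControl in all 3 libraries labelled sgNSD3, with a log2 fold of 0.11 (limma adjusted p = 0.363). Mrps12, a protein of the decoding centre, had a log2 fold of -0.08 (limma adjusted p = 0.69).

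The 3 Mrps18 genes encode paralogs that replaced a single bacterial protein, Mrps18c in its ancestral place and the others elsewhere in the ribosome. Mrps18a averaged 280.0 ± 35.6 normalized counts in the libraries labelled sgNSD3 and 290.5 ± 20.02 in sgControl libraries (SD, n = 3 each). Mrps18b averaged 560.2 ± 27.7 in the libraries labelled sgNSD3 and 587.9 ± 27.9 in sgControl libraries (SD, n = 3 each). Mrps18c averaged 76.52 ± 2.13 in the libraries labelled sgNSD3 and 67.15 ± 15.7 in sgControl libraries (SD, n = 3 each). All 3 had overlapping groups, and their limma adjusted p ranged from 0.485 to 0.758. With few reads, Mrps18c allowed the widest interval, from 0.920-fold to 1.45-fold.

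**Figure D3:**
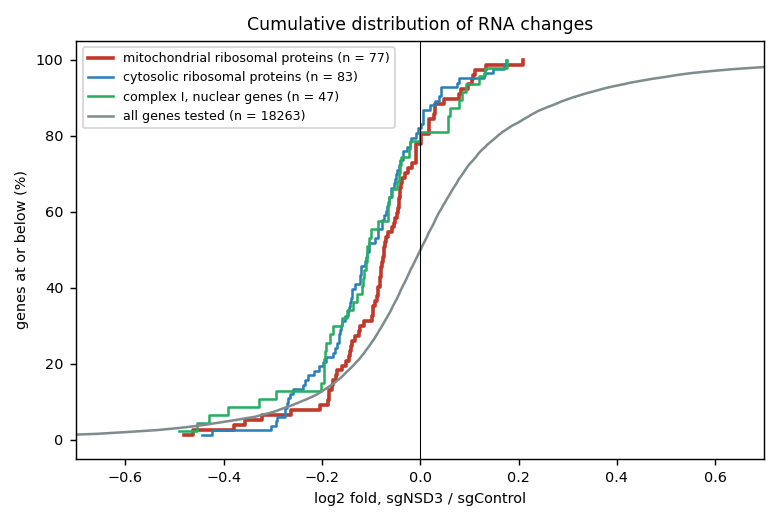
Cumulative share of genes (y axis, percent) at or below each log2 fold (x axis, libraries labelled sgNSD3 over sgControl libraries) for the 77 tested members, 83 cytosolic ribosomal protein genes, 47 nuclear complex I genes and all 18263 tested genes. The 3 coloured curves cross the middle of the y axis left of 0, at medians of -0.07, -0.10 and -0.11.

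Other nuclear gene families of the same kind also lay below 0. Of 83 tested cytosolic ribosomal protein genes, 31 were lower and 0 higher, with a median log2 fold of -0.10. Their median SE was 0.04, against 0.08 for the mitochondrial family, so smaller changes could pass. Nuclear genes of complex I, the first enzyme of the respiratory chain, were taken as symbols that begin with Nduf, without a limit to its subunits. Of 47 tested, 4 were lower and 0 higher, with a median of -0.11. That share of 8.51% was near the 6.44% of all tested genes, while 37.3% of the cytosolic family was lower. Among the 4 were Ndufs6 (1.32-fold), Ndufa13 (1.26-fold) and Ndufv2 (1.14-fold lower). The differences between the families were not tested.

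Most of the machinery around the mitochondrial ribosome did not pass the test in either direction, and neither did most of all tested genes. The shares over all tested genes were 6.44% lower and 5.44% higher. At those shares short lists hold few calls, so few calls do not set these lists apart. Of 5 further ribosomal proteins with other symbols, only Gadd45gip1, a large-subunit protein also known as CRIF1, was lower. It averaged 270.0 ± 11.9 normalized counts in the libraries labelled sgNSD3 and 322.2 ± 13.5 in sgControl libraries (SD, n = 3 each; limma adjusted p = 0.0287), and the call was lost without sgControl replicate 1 or 2 or sgNSD3 replicate 1 or 2 (0.0847, 0.0564, 0.0902 and 0.136). Dap3, Ptcd3, Chchd1 and Aurkaip1 had log2 folds between -0.05 and 0.04.

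Of 27 assembly factors, 1 was higher and 0 lower. It was Grsf1, an RNA-binding protein of mitochondrial RNA granules, with 1290 ± 20.9 normalized counts in the libraries labelled sgNSD3 and 1118 ± 107.7 in sgControl libraries (SD, n = 3 each; limma adjusted p = 0.00677). Of 15 translation factors 0 were called, with Tufm, the elongation factor Tu, at a log2 fold of 0.04. Of 20 mitochondrial tRNA synthetase genes and partners, Aars2, the alanyl-tRNA synthetase, was lower, 1.24-fold (limma adjusted p = 0.0318). That call was lost without sgControl replicate 1 or 3 or sgNSD3 replicate 2 or 3 (0.0862, 0.0728, 0.173 and 0.0909).

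Of 15 genes for mitochondrial DNA maintenance and transcription 0 were called. At an unadjusted p under 0.05, 3 of these and 1 translation factor were lower and 2 translation factors were higher. Over all 18263 tested genes, 2381 were lower and 2135 higher at that threshold. Tfam, which packages mitochondrial DNA, had a log2 fold of -0.18 (limma adjusted p = 0.081). Of 10 tested regulators of nuclear genes for mitochondria, Myc was lower, 1.17-fold (limma adjusted p = 0.00313), and NRF1, GABPA and YY1 genes were not called. Of 9 mitochondrial chaperones and proteases, Hspa9, the mitochondrial HSP70, was higher, 1.07-fold (limma adjusted p = 0.0241), which was lost without any one sgNSD3 replicate (0.112, 0.0512 and 0.146).

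The mRNAs that this ribosome translates were lower too. Of 11 tested mitochondrially encoded mRNAs 8 were lower, with a median log2 fold of -0.50, as with mt-Nd1 at 3459 ± 208 normalized counts in the libraries labelled sgNSD3 and 5276 ± 504 in sgControl libraries (SD, n = 3 each; limma adjusted p = 2.04e-09). They took 0.654%, 0.674% and 0.637% of counts in the libraries labelled sgNSD3, against 0.651%, 0.808% and 0.864% in sgControl libraries, where replicate 1 lay within the range of the other condition. The difference between these mRNAs and the members was not tested.

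Members often lie head to head with another gene. Of the 69 members with a RefSeq promoter, 26 (37.7%) had a gene on the opposite strand that points away from them and starts within 1000 bases. The share was 13.2% of 17492 protein-coding genes. Mrpl46 and Mrps11 form such a pair of members, with starts 42 bases apart, and had log2 folds of -0.14 and -0.01. Mrps12 is paired with Sars2, a mitochondrial seryl-tRNA synthetase gene, Mrpl43 with Twnk, the mitochondrial DNA helicase gene, and Mrpl47 with Ndufb5 of complex I. Of 25 partners tested, 1 was lower and 0 were higher, and 14 of the 25 fitted changes lay below 0. Over all tested genes, 6.44% were lower, 5.44% were higher and 49.8% of fitted changes lay below 0. The members of the same pairs had 19 of 25 below 0. The difference between members and partners was not tested.

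The called partner was Fau, which encodes a ubiquitin-like protein fused to cytosolic ribosomal protein S30 and starts 192 bases from Mrpl49. Fau had 1077, 1095 and 1107 normalized counts in the libraries labelled sgNSD3, against 1624, 1499 and 1231 in sgControl libraries (limma adjusted p = 7.11e-05), 1.33-fold lower. Mrpl49 had 460.9, 436.3 and 482.9 normalized counts in the libraries labelled sgNSD3, against 422.0, 467.9 and 474.0 in sgControl libraries, with overlapping groups (limma adjusted p = 0.912). The log2 ratio of Mrpl49 to Fau averaged -1.249 ± 0.0692 in the libraries labelled sgNSD3 and -1.67 ± 0.284 in sgControl libraries (SD, n = 3 each). The pair was picked because Fau was the called partner, so the ratio is a description with no test. The Mrpl49 promoter (chr19:6057706-6058005, minus strand, GRCm38.p6) is shown because Fau starts within it on the other strand, with the YY1-type match in capitals.
Mrpl49: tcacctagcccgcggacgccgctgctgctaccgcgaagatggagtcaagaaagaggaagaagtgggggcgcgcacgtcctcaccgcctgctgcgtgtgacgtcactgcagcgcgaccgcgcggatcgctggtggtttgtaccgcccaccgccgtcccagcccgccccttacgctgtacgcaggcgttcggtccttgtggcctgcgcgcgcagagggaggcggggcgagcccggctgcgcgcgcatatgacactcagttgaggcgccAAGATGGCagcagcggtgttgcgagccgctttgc

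**Figure D4:**
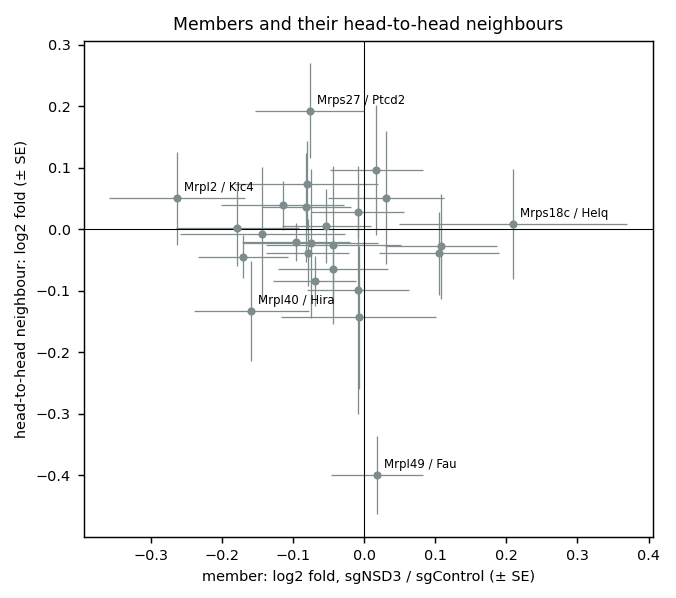
Log2 fold (libraries labelled sgNSD3 over sgControl libraries) of members (x axis) and of their head-to-head neighbours (y axis), with standard errors, for 25 members with both genes tested; the Mrpl46 and Mrps11 pair appears once from each side. Fau, opposite Mrpl49, stands apart at -0.40, and the other neighbours lie between -0.14 and 0.19.

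In chromatin, gene bodies of the members had scores near the middle of all gene bodies for H3K36me2, a mark that NSD enzymes deposit. For the repressive mark H3K27me3 their median lay below that of all gene bodies, but above the lower quartile of all (-0.0617 in the authors' deposited table). For each gene body the authors' deposited table holds a score, above or below 0, in 1 column for H3K27me3 and 2 for H3K36me2. The comparison behind a score is not described in the authors' deposited table, so the scores give no direction between the conditions. They are not read as amounts of a mark. For H3K27me3 the authors' deposited table gave a median of -0.0476 over 76 members against -0.0258 over all 22470 gene bodies, with 14.5% of members and 31.5% of all above 0. For H3K36me2 the authors' deposited table gave medians of 0.0656 and 0.134 over the members in its first and second columns, against 0.0757 and 0.125 over all gene bodies. Of 76 members, 61 (80.3%) in the authors' deposited table were above 0 in both H3K36me2 columns, against 85.1% of all gene bodies, and 0 members were below 0 in both.

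The other families had similar H3K27me3 medians in the authors' deposited table, at -0.0467 for 85 cytosolic ribosomal protein gene bodies and -0.0467 for 45 of complex I. By subunit, the authors' deposited table gave H3K27me3 medians of -0.0476 for the large and -0.0476 for the small subunit. Scores in that column recur at nearly the same values. In the authors' deposited table, Mrpl10, Mrpl32 and Mrpl38 stood at -0.0685, and Mrps6, Mrps7 and Mrpl47 at -0.0476. Equal medians therefore do not show that the families are alike in the mark. No test was made, since scores of different genes come from the same libraries.

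Single members stood out from the rest in a mark or column, and Mrps33 was among the highest in both marks. In the authors' deposited table the highest H3K27me3 scores belonged to Mrps22 (0.268), Mrps9 (0.183) and Mrps33 (0.177), and the lowest to Mrps2 (-0.302), Mrps17 (-0.253) and Mrpl39 (-0.136). For the mean of the H3K36me2 columns in the authors' deposited table, Mrps18b (0.253), Mrpl10 (0.213) and Mrps33 (0.205) were highest, and Mrpl23 (-0.0150), Mrpl49 (-0.00235) and Mrpl43 (0.00178) lowest. The columns ranked members differently: across the 76 members, Spearman's rho was 0.094 between both columns for H3K36me2 in the authors' deposited table, as a description of genes that share the same libraries. Mrpl15 was lowest in the first column of the authors' deposited table (-0.107) and at 0.168 in the second.

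Rank correlations of the scores with the RNA change were near 0. For H3K36me2 this says little, because both columns hardly agreed on the rank of the members (Spearman's rho 0.094). Ranks by the mean of the columns share that limit: Mrpl54 ranked 7 in the first column and 69 in the second. Across 75 members with both values, Spearman's rho between the RNA log2 fold and the authors' deposited table was -0.10 for mean H3K36me2 and -0.045 for H3K27me3, given as a description. The called genes were spread over the range: in the authors' deposited table their mean H3K36me2 ranked 5 for Mrps36, 16 for Mrpl52, 43 for Mrpl42, 48 for Mrpl54 and 61 for Mrpl17 among the 76 members, counted from the highest. Mrpl57 and Mrpl58 are listed there under their older symbols Mrp63 and Ict1 and were not counted. The authors' deposited table gives them H3K27me3 scores of -0.0457 for Mrpl57 and -0.0268 for Mrpl58.

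**Figure D5:**
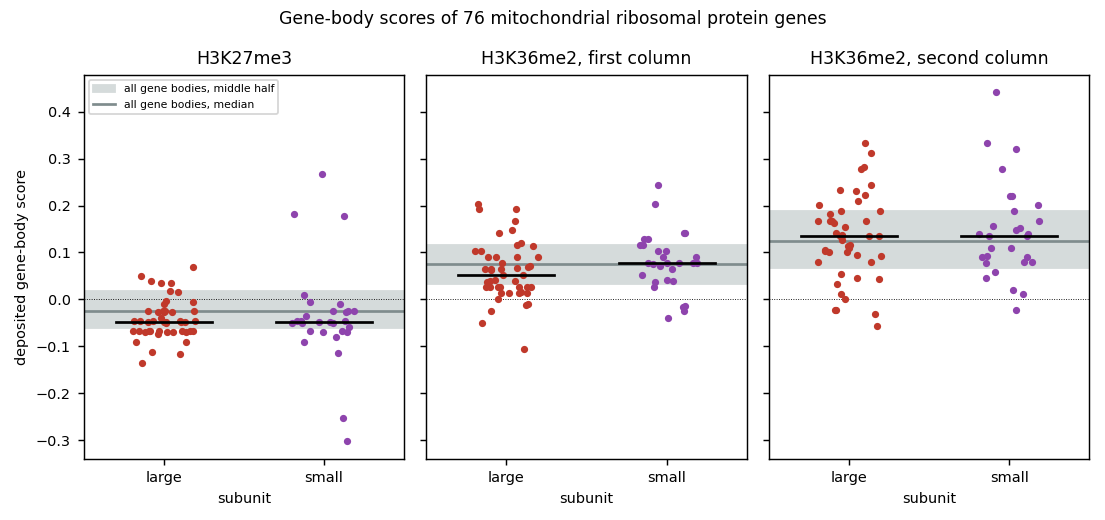
Gene-body scores (y axis, unit not stated) of the authors' deposited table for 76 members, split into large and small subunit, in the H3K27me3 column and both H3K36me2 columns. Black bars are medians of the subunits, the grey line and band are the median and the range between the quartiles of all gene bodies, and Mrps2 and Mrps17 are the low points of the first panel at -0.302 and -0.253.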

How the data were processed

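RNA and histone marks were profiled in mouse tumor-derived cells, and the tables analysed were deposited by the authors. The build mm10 and the tools HISAT2, featureCounts and DESeq2 are named per the submitters' processing notes, without versions; settings and strand handling were not given in the sources used here. For RNA the authors deposited log2 values, and the values themselves place them on DESeq2's variance-stabilised scale, on which a gene with no read sits at 8.45. Undoing that scale gave normalized counts, and 100% of them became whole numbers of reads, within 0.05, when multiplied by the size factor of their library. The filter had been planned on the log2 scale and was applied to normalized counts. For chromatin the authors deposited a score per gene body, above or below 0; its calculation was not stated. There were 0 other value columns.

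Libraries were grouped by sample titles, whose sgNSD3 numbers differ from those in the descriptions. The RNA test was limma's moderated linear model (version 3.58.1, R 4.3.3, with a mean-variance trend), run on 18263 genes of the deposited log2 table with a mean of at least 8 normalized counts, with a threshold of 0.05. Folds are ratios of mean normalized counts; log2 folds with standard errors and 95% intervals were fitted by limma after adding 1 to each normalized count, so changes of low genes are understated. Because the unit was log2, no count model was the main test; limma-voom on recovered counts was an alternative.

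The members, lists and named genes were chosen with earlier results of these data known. Named genes were Nsd3, called members, the Mrps18 paralogs, Mrpl12, Mrpl58, Mrps36, the members next to the threshold, up to 3 called genes per list and the members at the ends of the score ranges; other members were named for their role or place in the range after their values were seen. The planned naming by level per kilobase was not applied, because transcript lengths were not used here, so levels are not compared between genes. Positions, gene spans and promoters came from RefSeq (GRCm38.p6): all 78 members matched a gene and 69 a promoter. Of the members, 25 overlap another RefSeq gene in span, and without a stated strand setting reads there may be shared or dropped. Other scalings, filters and tests, a replicate block and fits without each library were also run.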

Additional observations from a re-analysis of the deposited data

How the results depend on the processing

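Over 16 alternatives, 0 members were called higher, and the 5 calls were unchanged with a pseudocount of 1 or 4, a minimum mean of 32, rescaling without mitochondrial and ribosomal RNA, limma-voom and no mean-variance trend. With the replicate block by title number 8 members were lower, the 5 and Mrpl2 (limma adjusted p = 0.0392), Mrpl12 (0.0372) and Mrps33 (0.0465). By description number 5 were lower, of which 4 were the same: Mrpl52 was lost (0.054) and Mrps33 gained (0.0479). Same-numbered libraries did not deviate together (correlations of deviations -0.015 to 0.054 by title and -0.084 to -0.015 by description), so the numbers are not taken as pairs. Leaving out 1 library gave 1 to 6 lower members, 641 to 993 higher and 707 to 1164 lower genes among all tested, and 1 to 2 higher and 8 to 9 lower genes in the other lists (2 and 11 with all libraries). Without the mean-variance trend the other lists had 1 higher gene, since Hspa9 was not called. Lower cytosolic ribosomal protein genes ranged from 25 to 42 and lower complex I genes from 2 to 7 (31 and 4 with all libraries). For single named genes, 393 repeats kept the call or its absence, 30 lost it, 9 gained it and 0 turned round. The median H3K36me2 score of the members was 0.0944 for the mean of the columns, 0.0656 for the first and 0.134 for the second. The causes were not tested. Counts of the tested members ran from 46 to 1169 per library, and the standard error of the log2 fold from 0.047 to 0.168; what share of it is counting error was not tested.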
